A study of Homo sapiens with 24 samples.

Results

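IMS-M2 is a human acute myeloid leukaemia cell line, and the 6 libraries described here measure its polyadenylated RNA with and without folic acid under treatment with OTX. The 3 libraries of cells cultured without folic acid (-FA OTX) were set against the 3 of cells cultured with it (+FA OTX). They are 6 of the 24 libraries in the series and were chosen by their labels alone. All 6 libraries carry OTX, so what they share is the drug. By their labels folic acid separates them, and the values of each group also come from a table of their own. Knowledge of the study, not the labels, identifies OTX as birabresib (OTX015), an inhibitor of the BET bromodomain proteins. The labels give only the abbreviation, with no dose, no duration and no length of the folic acid removal. A further pair of comparisons was set beside it: the -FA and +FA libraries of IMS-M2 treated with the solvent DMSO, and the -FA and +FA OTX libraries of U937, a monocytic line, each with 3 libraries per group. Nothing in the labels tells whether replicates were separate cultures. The p-values therefore measure only the spread between these samples.

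Folate carries the carbon units that cells use to make purines and thymidylate and to remake methionine, and serine is the main donor of those units. BET proteins bind acetylated histones and promote transcription elongation, and their inhibitors are known in leukaemia for lowering lineage and growth genes. ATF4 is a transcription factor made when cells sense a lack of amino acids or other stress, and its targets include the enzymes of serine and asparagine synthesis and amino acid transporters. The sterol pathway is run by SREBP2, and the interferon response by STAT and IRF transcription factors.

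Levels are in FPKM, fragment numbers scaled by transcript length and library size, on which levels can be compared between genes. They come from 1 table for each line and folic acid condition, and the tables may have been normalized separately. The 6 libraries were therefore rescaled together by the median of ratios, with factors between 0.9930 and 1.0118. A difference between the 2 tables and an effect of folic acid cannot be told apart within this comparison. The FPKM of a library summed to between 554314 and 577633. Each library had 10418 to 10490 genes at 1 FPKM or more. The depth is unknown since no counts were given, though the spacing of low values puts replicate 3 of +FA OTX at about 0.712 of the depth of replicate 1 and the other libraries between 0.933 and 1.035 of it. Between libraries of 1 group, Pearson's r over genes (log2 scale; genes are not independent replicates) was 0.9947 to 0.9965 in -FA OTX and 0.9936 to 0.9951 in +FA OTX. Of 12 markers of a myeloid leukaemia line, 11 were above 1 FPKM in all 6 libraries and MPO, a granule enzyme, lay under 1 FPKM in all 6. The T cell markers CD3D, CD3E and CD2 lay under 1 FPKM. The B cell markers MS4A1 and PAX5, the erythroid markers HBA1 and HBA2, the platelet markers PF4 and PPBP and the epithelial marker EPCAM were listed at 0 in all 6. Other markers of these types were not. The B cell receptor subunit CD79A ran from 5.83 to 7.36 FPKM in the -FA libraries and from 5.34 to 7.66 FPKM in the +FA libraries. The platelet integrin ITGA2B ran from 15.5 to 16.6 FPKM in the -FA libraries, above the range of 10.8 to 14.2 FPKM in the +FA libraries, and the platelet glycoprotein GP9 lay at 1.16 to 1.98 FPKM in the -FA libraries and 1.08 to 2.168 FPKM in the +FA libraries. KRT8, KRT18, HBB and VIM are given with the lineage lists.

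Without folic acid, genes of the amino acid stress response, of cholesterol synthesis and of the interferon response were higher in OTX-treated cells. The lowest change among the named genes was that of the imprinted RNA H19, and TARP and the cytokine signalling inhibitors SOCS3 and SOCS1 were among the 12 lowest. In limma, 490 of 10606 genes tested passed a Benjamini-Hochberg adjusted p of 0.05 (4.62%) and are called changed below. Of these, 335 were higher (3.16%) and 155 lower (1.46%) without folic acid, and 27 changed by a log2 of at least 1 (0.255%), 23 of them upward and 4 downward. The shares of 3.16% and 1.46% are the background of the list counts under OTX in IMS-M2 from the fit without a block. Small RNA symbols were left out of the named genes, though some changed more. Among them were SNORA48 (26.65 FPKM without folic acid and 0 with it, log2 4.76), SNORD10 (9.22 and 0 FPKM, log2 3.34) and SNORA33 (log2 -1.21). The median log2 change over all genes tested was -0.01. At an unadjusted p under 0.05 in limma, 2127 of the 10606 genes passed in either direction. That share is the background of the unadjusted list counts below. In bulk RNA, a change in the share of cells that express a gene and a change in RNA per cell cannot be told apart. All 3 -FA libraries lay above or below all 3 +FA libraries in 2666 genes (25.1%), 1381 above (13%) and 1285 below (12.1%). Libraries with the same replicate number deviated together (r = 0.130, 0.361 and 0.111 for numbers 1, 2 and 3), but so did replicates 1 and 3 across the groups (r = 0.124 and 0.109), so that only number 2 stood apart. A fit with the number as a block called 2811 genes (26.5%), 1325 higher (12.5%) and 1486 lower (14%). The count of calls fell to 146 without replicate 1 of -FA OTX, 230 without replicate 3 of -FA OTX, 207 without replicate 1 of +FA OTX and 251 without replicate 3 of +FA OTX.

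The 3 named genes with the highest log2 changes belong to the amino acid stress response. CHAC1, which breaks down glutathione and is a well known ATF4 target, lies at chr15:41245636-41248717 (hg19). It had 16.2, 15.0 and 17.9 FPKM in the -FA OTX libraries, against 4.22, 3.66 and 4.91 FPKM in the +FA OTX libraries, with no overlap between the groups (log2 1.73 ± 0.10, adjusted p = 0.000304). Log2 changes are on the scale of FPKM + 1 and are given ± SE, with limma's adjusted p. DDIT4 at chr10:74033677-74035797, a stress-induced inhibitor of mTORC1, had 66.2, 59.4 and 80.1 FPKM in the -FA OTX libraries, against 25.1, 22.1 and 30.3 FPKM in the +FA OTX libraries (log2 1.37 ± 0.14, adjusted p = 0.00249). Its lowest -FA library lay well above its highest +FA library, and replicate 2 was the lowest of both groups. PCK2 at chr14:24563483-24573339, the mitochondrial enzyme that makes phosphoenolpyruvate, had 48.3, 42.5 and 48.7 FPKM in the -FA OTX libraries, against 18.96, 14.5 and 19.2 FPKM in the +FA OTX libraries (log2 1.36 ± 0.11, adjusted p = 0.00128). The groups were again apart in all libraries.

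Serine and asparagine synthesis followed. PHGDH at chr1:120254419-120286849, which catalyses the first step of serine synthesis, had 101, 97.9 and 108 FPKM in the -FA OTX libraries, against 51.7, 46.2 and 50.6 FPKM in the +FA OTX libraries (log2 1.03 ± 0.07, adjusted p = 0.000538). PSAT1 at chr9:80912059-80945009, the enzyme of the second step, had 50.1, 56.4 and 51.4 FPKM in the -FA OTX libraries, against 20.2, 22.2 and 24.2 FPKM in the +FA OTX libraries (log2 1.21 ± 0.08, adjusted p = 0.000538). PSPH, which completes the pathway, had 16.9, 17.4 and 17.1 FPKM without folic acid and 17.7, 17.8 and 16.1 FPKM with it and did not pass the test (log2 -0.01, adjusted p = 0.976), and its libraries overlapped. ASNS at chr7:97481429-97501854, the asparagine synthetase, had 162, 176 and 170.1 FPKM in the -FA OTX libraries, against 70.7, 77.0 and 71.3 FPKM in the +FA OTX libraries (log2 1.20 ± 0.06, adjusted p = 0.000287). It was the highest of these genes in level, and each -FA library exceeded every +FA library by a wide margin.

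Across the list of serine synthesis and ATF4 response genes, 15 of 34 tested members were higher and 0 lower, against 3.16% and 1.46% of all genes tested, with a median log2 change of 0.30. Besides those above, the called members were the transporters SLC7A5 (log2 0.71), SLC3A2 (0.43), SLC1A4 (0.37) and SLC7A11 (0.88), the pseudokinase TRIB3 (0.92), the tryptophanyl-tRNA synthetase WARS (0.85), the cysteinyl-tRNA synthetase CARS (0.27), the secreted protein STC2 (0.72), the transcription factor JDP2 (0.65) and the lipoprotein receptor VLDLR (0.65). SLC7A11, the cystine importer, was low, at 1.95, 2.30 and 1.88 FPKM without folic acid and 0.625, 0.714 and 0.619 FPKM with it. WARS had 76.5, 77.2 and 78.2 FPKM in the -FA OTX libraries, against 41.6, 41.7 and 44.5 FPKM in the +FA OTX libraries (log2 0.85 ± 0.06, adjusted p = 0.000538). WARS is also raised by interferon gamma.

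ATF4 itself had 224, 228 and 245 FPKM without folic acid and 228, 218 and 239 FPKM with it and did not pass the test (log2 0.03, adjusted p = 0.864), and its protein was not measured. Its partner DDIT3 had 8.74, 8.51 and 9.76 FPKM without folic acid and 8.14, 7.66 and 8.02 FPKM with it and did not pass. CEBPB, another partner, had 19.7, 21.3 and 20.3 FPKM without folic acid and 21.1, 23.9 and 21.4 FPKM with it and did not pass. Most tRNA synthetases of the list were not called: the log2 changes were 0.04 for EPRS, 0.07 for NARS, 0.09 for SARS, 0.11 for AARS, 0.12 for TARS, 0.16 for GARS and 0.21 for MARS. NUPR1 was listed at 0 in the 6 libraries and SLC6A9 lay below 1 FPKM, so neither was tested. With the replicate block 22 members were higher and 0 lower, against 12.5% and 14% of all genes tested. Leaving out any 1 library gave between 11 and 14 members higher and 0 lower.

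The bases before the start of CHAC1 and ASNS are shown because these genes rose together and both windows hold the letters TGATGNAA, a core of the element that ATF4 and its partners bind. The sequences are from RefSeq (GRCh38.p14), 250 bases that end at the base before the annotated start, read along the gene. Capitals mark the match on either strand. CHAC1 is chr15:40953221-40953470 on the plus strand, with the match in reverse complement, and ASNS is chr7:97872409-97872658 on the minus strand.
CHAC1: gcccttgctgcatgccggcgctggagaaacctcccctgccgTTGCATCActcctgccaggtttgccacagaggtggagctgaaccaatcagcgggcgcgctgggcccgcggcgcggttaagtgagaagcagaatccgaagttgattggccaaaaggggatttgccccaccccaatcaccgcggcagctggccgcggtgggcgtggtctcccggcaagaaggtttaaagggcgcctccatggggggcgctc
ASNS: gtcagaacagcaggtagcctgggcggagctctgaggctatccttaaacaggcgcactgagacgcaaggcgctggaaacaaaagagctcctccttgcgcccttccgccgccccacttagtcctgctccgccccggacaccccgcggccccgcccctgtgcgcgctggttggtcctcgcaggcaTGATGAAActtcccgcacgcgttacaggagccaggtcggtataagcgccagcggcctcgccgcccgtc
The match lies 209 to 202 bases before the start in CHAC1 and 68 to 61 bases in ASNS. It is present in 3.19% of 27305 promoters of this length. Of 14 called list members with a listed promoter, 2 hold it. Of 15 that were not called, 2 hold it as well (ATF3 and AARS).

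**Figure D1:**
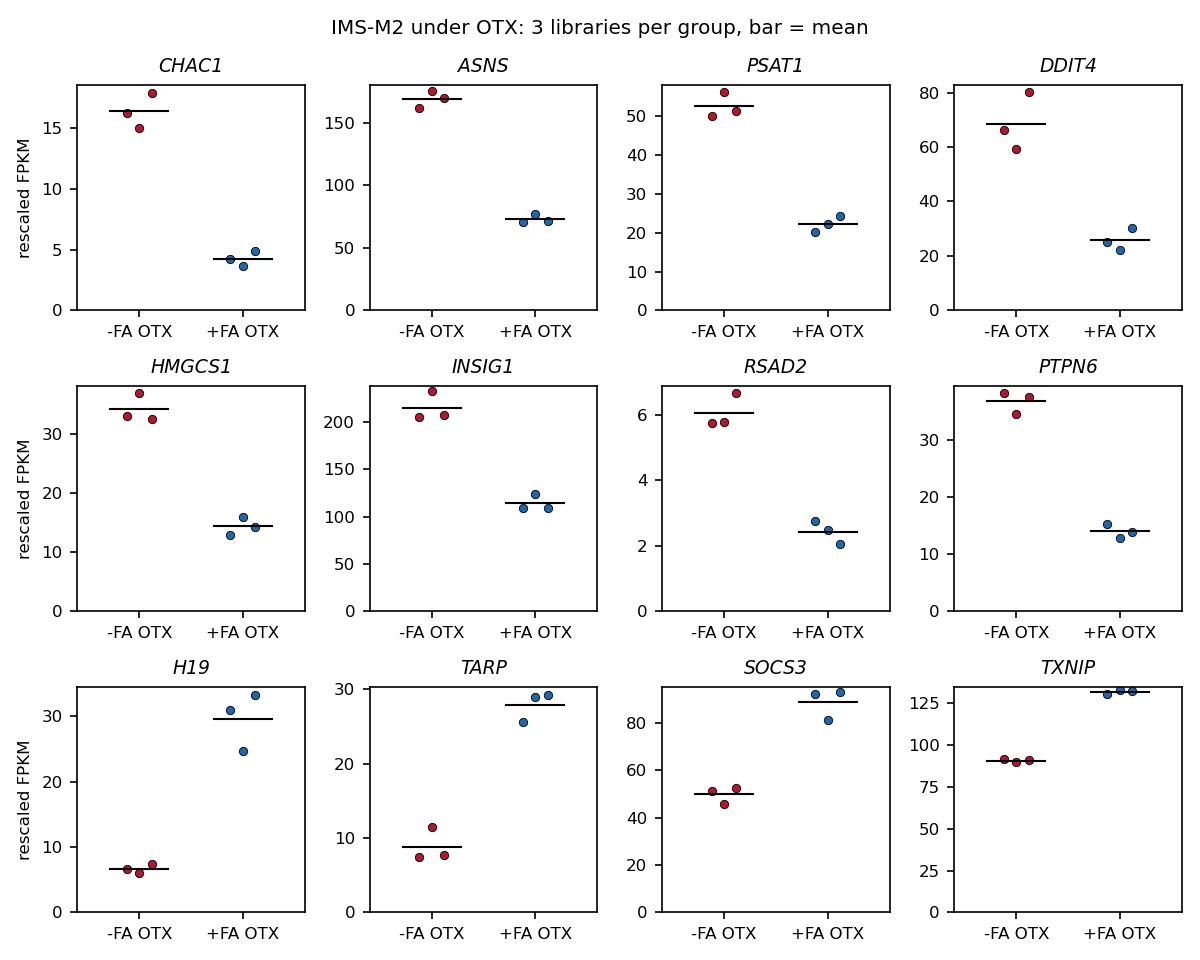
Rescaled FPKM (y axes, each from 0) of 12 genes in the 3 -FA OTX libraries (red, left) and the 3 +FA OTX libraries (blue, right) of IMS-M2, with a bar at the mean. In CHAC1, ASNS, PSAT1, DDIT4, HMGCS1, INSIG1, RSAD2 and PTPN6 every red point lies above every blue one, and in H19, TARP, SOCS3 and TXNIP every red point lies below.

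The folate and methionine cycle, the pathway that the removed vitamin feeds, was not called in 30 of 33 tested genes. The other 3 were higher and 0 were lower, against 3.16% and 1.46% of all genes tested, with a median log2 change of -0.004. CBS, which starts the conversion of homocysteine to cysteine, had 61.8, 52.8 and 55.5 FPKM in the -FA OTX libraries, against 39.0, 35.4 and 37.9 FPKM in the +FA OTX libraries (log2 0.59 ± 0.08, adjusted p = 0.007). The 2 others are mitochondrial enzymes that handle the carbon unit of serine. SHMT2 had 123, 120.3 and 138 FPKM without folic acid and 97.6, 89.1 and 103 FPKM with it (log2 0.39 ± 0.08, adjusted p = 0.0343). MTHFD2, which oxidises the carbon unit that SHMT2 delivers, had 155, 160.2 and 139.6 FPKM without folic acid and 110.0, 126 and 107 FPKM with it (log2 0.41 ± 0.09, adjusted p = 0.0389). SHMT2 lost its call without any 1 library except replicate 2 of -FA OTX, and MTHFD2 without any except replicate 2 of +FA OTX. CBS kept it in each case.

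The cytosolic folate enzymes and the folate carriers did not pass the test. SLC19A1, the reduced folate carrier, had 34.4, 33.6 and 36.0 FPKM without folic acid and 42.0, 36.0 and 42.7 FPKM with it, the highest -FA library at the level of the lowest +FA library (log2 -0.21, adjusted p = 0.2). TYMS, which makes thymidylate, had 212, 210.3 and 213 FPKM without folic acid and 217, 224 and 222 FPKM with it (log2 -0.06). SHMT1, the cytosolic counterpart of SHMT2, had 16.5, 17.5 and 18.8 FPKM without folic acid and 20.8, 19.6 and 22.6 FPKM with it (log2 -0.24). The trifunctional enzyme MTHFD1 stood at 49.2 ± 0.858 FPKM without folic acid and 51.5 ± 0.810 FPKM with it (mean ± SD, n = 3 per group, here and below). FPGS, which traps folate in the cell by adding glutamates, stood at 63.1 ± 6.51 FPKM without folic acid and 66.6 ± 6.08 FPKM with it. GGH, which removes them, stood at 78.2 ± 8.07 FPKM without folic acid and 88.7 ± 13.1 FPKM with it.

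In the methionine cycle, MTR, the methionine synthase, stood at 6.29 ± 0.328 FPKM without folic acid and 6.68 ± 0.0825 FPKM with it. Its reactivating partner MTRR stood at 12.8 ± 0.645 FPKM without folic acid and 14.8 ± 1.05 FPKM with it. MAT2A, which makes S-adenosylmethionine, stood at 174 ± 11.9 FPKM without folic acid and 158 ± 5.72 FPKM with it. AHCY, which clears S-adenosylhomocysteine, had 205, 184 and 215 FPKM without folic acid and 206, 189 and 213 FPKM with it. None of these passed the test. Of the remaining members, those named here lay between a log2 change of -0.30 (MTHFSD, adjusted p = 0.0558) and 0.19 (AHCYL2, adjusted p = 0.146), among them SLC25A32, DHFRL1, MTHFD1L, MTHFD2L, MTHFS, MTFMT, AMT, GCSH, DLD, GNMT, MAT2B, AHCYL1, CTH, MTAP, MMAA and MMACHC. The other 11 listed genes, which include the folate receptors FOLR1, FOLR2 and FOLR3, did not reach a mean of 1 FPKM in either group. With the replicate block 5 members were higher, among them CBS, SHMT2, MTHFD2 and AHCYL2, and 7 lower, among them SLC19A1, GGH, MTHFSD, SHMT1, GCSH and MTRR, against 12.5% and 14% of all genes. In nucleotide synthesis, 0 of 15 purine genes were called (1 higher and 4 lower at an unadjusted p under 0.05 in limma, 1 and 5 with the block). Of all 10606 genes tested, 2127 passed that unadjusted p in either direction. Of 18 pyrimidine and deoxynucleotide genes 1 was lower, the thymidylate kinase DTYMK (log2 -0.45, adjusted p = 0.0261), with 1 higher and 5 lower with the block. DTYMK lost its call without any 1 library except replicate 2 of -FA OTX.

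Cholesterol synthesis and uptake genes were higher in the majority of members. Of 23 tested, 17 were higher and 0 lower, against 3.16% and 1.46% of all genes tested, with a median log2 change of 0.52. HMGCS1 at chr5:43287572-43313614, which makes HMG-CoA, had 33.0, 36.9 and 32.5 FPKM in the -FA OTX libraries, against 12.9, 15.9 and 14.2 FPKM in the +FA OTX libraries (log2 1.20 ± 0.09, adjusted p = 0.00084). INSIG1 at chr7:155089486-155101945, a sterol-regulated brake on SREBP processing and itself a target of SREBP, had 205, 232 and 207 FPKM in the -FA OTX libraries, against 109, 124 and 109 FPKM in the +FA OTX libraries (log2 0.91 ± 0.08, adjusted p = 0.00144). In both the groups were apart, and the replicate 2 libraries were the highest of both groups.

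Further along the pathway, FDFT1, the squalene synthase, had 287, 285 and 289.5 FPKM without folic acid and 195, 198 and 193 FPKM with it (log2 0.55 ± 0.05, adjusted p = 0.00161), with the 3 values of each group close together. LSS, the lanosterol synthase, had 67.5, 58.4 and 70.3 FPKM without folic acid and 36.5, 31.4 and 38.2 FPKM with it (log2 0.87 ± 0.10, adjusted p = 0.00421). Other called members were MVD (log2 0.63), FDPS (0.51), CYP51A1 (0.70), TM7SF2 (0.70), MSMO1 (0.65), NSDHL (0.44), EBP (0.52), SC5DL (0.47) and DHCR7 (0.58). These act between mevalonate and cholesterol. The sterol carrier STARD4 (0.49) was called as well. SQLE, IDI1, MVK, HSD17B7, PMVK and the transcription factor SREBF2 were not called, with log2 changes from -0.12 (PMVK) to 0.43 (IDI1). With the replicate block 21 members were higher and 1, PMVK, was lower, against 12.5% and 14% of all genes tested. The count of higher members was 7 without replicate 1 of -FA OTX and 10 without replicate 1 of +FA OTX, and 12 to 18 without any other library. The letters TCACNCCAC, one form of the sterol element, were found in the 250 bases before the start of 0 of 13 called members with a listed promoter and of 1 of 5 that were not called (SREBF2), against 0.875% of all promoters.

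Interferon response genes were higher in 9 of 19 tested members and lower in 0, against 3.16% and 1.46% of all genes tested. Their median log2 change was 0.38. RSAD2, the antiviral enzyme viperin, had 5.74, 5.76 and 6.66 FPKM in the -FA OTX libraries, against 2.76, 2.49 and 2.06 FPKM in the +FA OTX libraries (log2 1.04 ± 0.10, adjusted p = 0.00183), with the groups apart. The antiviral proteins IFIT2 (log2 0.66) and IFIT3 (0.43), the ubiquitin-like ISG15 (0.57), the membrane proteins IFITM1 (0.60) and IFI6 (0.56), the RNA sensor OAS1 (0.51) and the transcription factor IRF1 (0.48) were called as well. IFIT2 averaged 1.965 FPKM without folic acid and 0.879 FPKM with it, so it reached the 1 FPKM needed for testing only in its higher group. STAT2, a transcription factor of the response, had 13.4, 12.2 and 14.01 FPKM without folic acid and 12.2, 10.7 and 12.2 FPKM with it and did not pass the test. IRF9, its DNA-binding partner, had 11.4, 10.4 and 10.7 FPKM without folic acid and 9.06, 7.34 and 9.64 FPKM with it and did not pass either, and neither did IRF7, BST2, USP18, OAS3, DDX58, IFITM3, IFIH1 or SAMD9. The block called 15 members higher and 0 lower, against 12.5% and 14% of all genes tested. In the fit without the block, 4 were called without replicate 1 of -FA OTX, 5 without replicate 3 of -FA OTX and 5 without replicate 1 of +FA OTX. IFIT3 lost its call without replicate 1 of -FA OTX.

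The windows of ISG15 and IFIT3 are shown because they hold the interferon-stimulated response element, searched on both strands as 2 copies of GAAA with any 2 bases between them, in capitals. ISG15 is chr1:1013247-1013496 and IFIT3 chr10:89327747-89327996, both on the plus strand, with RefSeq, build and window as above.
ISG15: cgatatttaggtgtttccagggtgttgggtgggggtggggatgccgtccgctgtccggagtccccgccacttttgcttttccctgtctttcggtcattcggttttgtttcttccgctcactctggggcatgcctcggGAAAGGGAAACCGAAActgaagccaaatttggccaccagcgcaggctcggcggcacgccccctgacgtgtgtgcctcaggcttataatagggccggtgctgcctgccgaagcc
IFIT3: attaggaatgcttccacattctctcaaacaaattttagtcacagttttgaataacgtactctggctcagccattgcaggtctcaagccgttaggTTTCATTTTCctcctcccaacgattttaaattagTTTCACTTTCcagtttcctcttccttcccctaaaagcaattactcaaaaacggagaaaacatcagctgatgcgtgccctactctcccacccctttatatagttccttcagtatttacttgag
In ISG15 the first match starts 113 bases before the start and runs into a second copy that shares its last bases, and IFIT3 holds 2 copies in reverse complement, the first 156 to 147 bases before the start. This spelling of the element is in 3.07% of 27305 promoters, in 4 of 7 called members with a listed promoter (IFI6, IFIT3, IFITM1 and ISG15) and in 5 of 8 that were not called. Copies of GAAA with 1 base between them were not counted. The windows of RSAD2 and OAS1, called members without a match, hold such copies.

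Inflammatory and NF-kB genes gave 5 higher and 0 lower of 18 tested (median log2 0.16), against 3.16% and 1.46% of all genes tested. The cytokine TNF had 24.9, 21.9 and 23.6 FPKM without folic acid and 16.4, 13.8 and 13.4 FPKM with it (log2 0.66 ± 0.09, adjusted p = 0.00759). The cytokine IL1B had 17.1, 18.4 and 15.9 FPKM without folic acid and 11.2, 11.2 and 11.4 FPKM with it (log2 0.56 ± 0.07, adjusted p = 0.00517). All 3 libraries were higher in both. The adhesion molecule ICAM1 stood at 3.89 ± 0.0457 FPKM without folic acid and 2.102 ± 0.0917 FPKM with it (log2 0.66 ± 0.06, adjusted p = 0.002). NFKBIA, the NF-kB inhibitor that NF-kB itself induces, stood at 50.8 ± 1.503 FPKM without folic acid and 38.7 ± 0.749 FPKM with it, and the fifth was TNFAIP2, an NF-kB target (log2 0.40). With the block 10 members were higher and 1, IER3, lower, against 12.5% and 14% of all genes tested. TNF lost its call without replicate 1 of -FA OTX, and NFKBIA without replicate 1 of either group. With the block 13 of 22 iron, haem and oxidative stress genes were higher and 2 lower, against 12.5% and 14% of all genes tested. Without it these genes gave 4 higher and 0 lower (median 0.16), against 3.16% and 1.46%. SLC40A1, the iron exporter ferroportin, led them, with 39.8, 40.4 and 42.1 FPKM without folic acid and 20.5, 23.0 and 19.1 FPKM with it (log2 0.94 ± 0.08, adjusted p = 0.0012). The others were the cystine importer SLC7A11, already described, the quinone reductase NQO1 (log2 0.45) and the haem synthesis enzyme ALAS1 (0.32). NQO1 averaged 1.69 FPKM without folic acid and 0.973 FPKM with it, so it reached the 1 FPKM needed for testing only in its higher group. NQO1 lost its call without replicate 1 or 3 of either group, and ALAS1 without any 1 library except replicate 2 of -FA OTX.

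**Figure D2:**
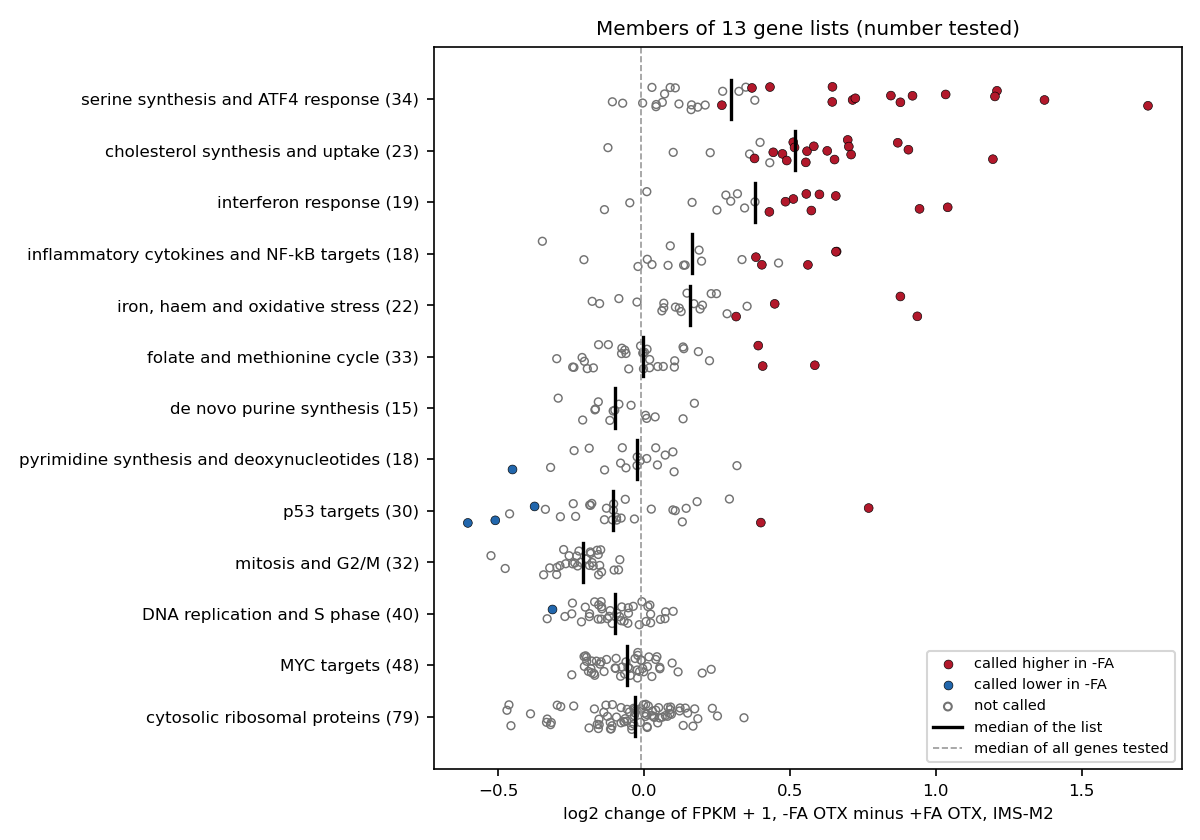
Log2 change of FPKM + 1, -FA OTX minus +FA OTX (x axis), of every tested member (points) of 13 gene lists (rows, with the number tested); filled points were called at an adjusted p under 0.05, black bars are list medians and the dashed line is the median of all 10606 genes. The ATF4, cholesterol and interferon lists lie to the right, with medians of 0.30, 0.52 and 0.38, and all 32 mitosis genes lie left of 0 with none called.

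Other named genes on the higher side lay outside the lists above. PTPN6, the phosphatase SHP-1 that restrains cytokine receptors, had 38.2, 34.5 and 37.4 FPKM in the -FA OTX libraries, against 15.3, 12.9 and 13.9 FPKM in the +FA OTX libraries (log2 1.33 ± 0.08, adjusted p = 0.000304). CD53, a leukocyte tetraspanin, had 14.4, 11.2 and 14.1 FPKM without folic acid and 4.89, 4.93 and 6.11 FPKM with it (log2 1.17 ± 0.11, adjusted p = 0.00215). ANPEP, the myeloid surface peptidase CD13, had 6.22, 5.68 and 5.81 FPKM without folic acid and 2.08, 1.44 and 2.04 FPKM with it (log2 1.28 ± 0.10, adjusted p = 0.001). LBH, a transcription cofactor, stood at 7.43 ± 0.599 FPKM without folic acid and 2.33 ± 0.327 FPKM with it. LPXN, a focal adhesion protein of leukocytes, stood at 5.80 ± 0.187 FPKM without folic acid and 2.05 ± 0.0742 FPKM with it, and both were called. HIST1H2BC scattered, with 30.5, 16.2 and 24.8 FPKM without folic acid and 8.27, 9.50 and 10.2 FPKM with it, with the call (adjusted p = 0.0146) lost without replicate 1 of +FA OTX or replicate 3 of -FA OTX. SAT1, which starts the breakdown of polyamines, stood at 83.5 ± 5.52 FPKM without folic acid and 53.5 ± 3.49 FPKM with it and was the only 1 of 16 polyamine genes called. VEGFA, a hypoxia and ATF4 target, stood at 18.1 ± 1.80 FPKM without folic acid and 11.6 ± 0.866 FPKM with it, lost without replicate 1 of +FA OTX.

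On the lower side, H19, an imprinted noncoding RNA at chr11:2016406-2019065, had 6.60, 6.02 and 7.39 FPKM in the -FA OTX libraries, against 31.0, 24.7 and 33.2 FPKM in the +FA OTX libraries (log2 -1.99 ± 0.12, adjusted p = 0.000304). H19 is 1 of 6388 genes that share their position with another in the tables, and whether counting used the strand is not stated, so their values are uncertain. SHMT2, SLC7A11, GDF15, HIST1H2BK, HIST1H3D, HOXB5, PINX1, LENG1 and FAM45A are others. TARP, a transcript of the T cell receptor gamma locus, had 7.39, 11.5 and 7.66 FPKM in the -FA OTX libraries, against 25.6, 28.9 and 29.3 FPKM in the +FA OTX libraries (log2 -1.58 ± 0.15, adjusted p = 0.002), while the T cell markers CD3D, CD3E and CD2 lay under 1 FPKM. SOCS3 at chr17:76352859-76356158, an inhibitor of JAK-STAT signalling, had 51.1, 45.9 and 52.6 FPKM in the -FA OTX libraries, against 91.96, 81.2 and 93.0 FPKM in the +FA OTX libraries (log2 -0.82 ± 0.08, adjusted p = 0.00216). SOCS1 at chr16:11348274-11350039, an inhibitor of interferon signalling, had 30.3, 32.6 and 35.2 FPKM in the -FA OTX libraries, against 61.7, 59.8 and 52.6 FPKM in the +FA OTX libraries (log2 -0.81 ± 0.08, adjusted p = 0.00285). In both genes all -FA libraries lay below all +FA libraries.

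The remaining 8 of the lowest named genes were C10orf10 (log2 -1.06), PHLDA1 (-0.98), LOC100652739 (-0.90), TENC1 (-0.81), ACTA2 (-0.76), CD200 (-0.74), WDR86 (-0.74) and PRKG1 (-0.72). PHLDA1, a growth factor induced gene, had 2.80, 3.52 and 2.75 FPKM without folic acid and 6.44, 7.45 and 6.87 FPKM with it. CD200, an immune inhibitory ligand of leukaemic cells, had 12.5, 13.9 and 14.2 FPKM without folic acid and 22.6, 23.4 and 24.1 FPKM with it, with groups far apart for their spread. C10orf10, ACTA2, LOC100652739, TENC1, WDR86 and PRKG1 share their positions with another gene. TENC1 lost its call without replicate 1 of -FA OTX and PRKG1 without replicate 1 or 3 of it. HSPB1, a small heat shock protein, had 393, 409.9 and 414 FPKM without folic acid and 616, 573 and 539.7 FPKM with it (log2 -0.50 ± 0.06, adjusted p = 0.00632), the only 1 of 15 heat shock genes called. BCL2, an inhibitor of cell death, stood at 4.96 ± 0.543 FPKM without folic acid and 7.95 ± 0.465 FPKM with it (log2 -0.59 ± 0.08, adjusted p = 0.00894; not called without replicate 1 of -FA OTX).

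Genes of mitosis lay slightly lower in every case but were not called. All 32 tested had a fitted log2 change below 0, from -0.53 (HMMR) to -0.08 (PRC1), with a median of -0.21. At an unadjusted p under 0.05 in limma, 0 were higher and 15 lower, against 2127 of all 10606 genes in either direction. HMMR, a spindle protein, had 14.6, 20.8 and 15.0 FPKM without folic acid and 22.0, 28.7 and 22.8 FPKM with it (adjusted p = 0.0981). CDK1, the mitotic kinase, had 73.6, 100.2 and 70.2 FPKM without folic acid and 86.7, 115 and 89.5 FPKM with it. BIRC5, survivin, had 55.9, 65.4 and 62.5 FPKM without folic acid and 72.8, 79.6 and 74.3 FPKM with it. In HMMR and CDK1 the replicate 2 libraries were the highest of both groups, and in all 3 each -FA library lay below the +FA library of the same number. With the replicate block 27 of the 32 were lower and 0 higher, against 14% and 12.5% of all genes tested. The count of lower members was 5 without replicate 2 of -FA OTX and 0 without any other library. In DNA replication 1 of 40 genes was lower, GINS2, a subunit of the replicative helicase, with 31.4, 33.8 and 31.8 FPKM without folic acid and 40.0, 42.4 and 39.1 FPKM with it (log2 -0.32 ± 0.06, adjusted p = 0.0311). With the block 16 were lower and 0 higher. GINS2 kept its call only without replicate 2 of -FA OTX. None of 48 MYC targets and none of 79 cytosolic ribosomal protein genes were called (medians -0.06 and -0.03). At an unadjusted p under 0.05, 2 MYC targets were higher and 11 lower, and 7 ribosomal genes higher and 17 lower. These counts stand against the same 2127 of 10606 genes, so that they are not read as changes of the lists. The block gave 2 higher and 14 lower MYC targets and 5 higher and 10 lower ribosomal genes, against 12.5% and 14% of all genes tested.

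Among common readouts of BET inhibition, MYC and TXNIP were called lower, and HEXIM1, BRD2 and SERPINI1 were not called. HEXIM1, which BET inhibitors raise and which holds P-TEFb inactive, had 41.4, 39.8 and 39.2 FPKM without folic acid and 37.8, 38.9 and 35.1 FPKM with it (log2 0.11, adjusted p = 0.412). BRD2, itself a BET protein, had 164, 152 and 174 FPKM without folic acid and 149, 137 and 154 FPKM with it (log2 0.16, adjusted p = 0.287), and it was called higher with the block (adjusted p = 0.0186). SERPINI1, a serpin, had 2.75, 2.38 and 1.80 FPKM without folic acid and 2.104, 2.56 and 1.67 FPKM with it and did not pass the test. MYC had 117, 119 and 119.5 FPKM without folic acid and 143, 142 and 142 FPKM with it (log2 -0.26 ± 0.05, adjusted p = 0.0293), a small difference beside tight groups, and it lost its call without any 1 of the 6 libraries. IGLL1, an early lymphoid gene, had 0.585, 0.507 and 0.809 FPKM without folic acid and 1.37, 1.40 and 1.55 FPKM with it (log2 -0.58 ± 0.09, adjusted p = 0.011), with the call lost without replicate 1 of -FA OTX. TXNIP, an inhibitor of glucose uptake, had 91.4, 89.7 and 90.9 FPKM in the -FA OTX libraries, against 130.3, 133 and 132 FPKM in the +FA OTX libraries (log2 -0.54 ± 0.05, adjusted p = 0.002), so that the 3 values of each group lay within a few FPKM of each other and the groups were far apart.

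Among 11 genes reported as raised by BET inhibitors 4 were higher, all histone genes, and 1, TXNIP, lower. The list counts of this paragraph under OTX in IMS-M2 stand against 3.16% higher and 1.46% lower of all genes tested. HIST2H2BE had 22.0, 20.5 and 22.6 FPKM without folic acid and 12.2, 11.1 and 10.7 FPKM with it (log2 0.88 ± 0.07, adjusted p = 0.0012), and HIST1H2AC had 127, 99.2 and 119 FPKM without folic acid and 64.9, 67.7 and 58.8 FPKM with it (log2 0.84 ± 0.10, adjusted p = 0.00515). HIST1H2BK (log2 0.54) and HIST1H2BD (0.70) were the others, and both lost their call without replicate 1 of either group or replicate 3 of +FA OTX, HIST1H2BD also without replicate 3 of -FA OTX. Over the whole histone list 7 of 37 tested genes were higher and 1, the linker histone HIST1H1B (log2 -0.67), lower, with a median of 0.02, and histone copies resemble each other so that their values are uncertain. HIST1H1B was low, at 0.588, 0.888 and 0.663 FPKM without folic acid and 1.99, 1.47 and 1.71 FPKM with it, and lost its call without replicate 1 or 3 of -FA OTX. Of 8 tested genes reported as lowered by BET inhibitors 2 were higher, the cytokine receptor IL7R (log2 0.60) and FOSL1 (0.37), and 3 lower, BCL2, IGLL1 and MYC. FOSL1 lost its call without any 1 library except replicate 2 of -FA OTX. Under DMSO 4 of 10 tested genes of the raised list were higher and 0 lower, against 5.63% and 4.44% of all genes. The median was 0.39, beside 0.21 under OTX. HIST1H2AC (log2 0.75), HIST1H2BK (0.72) and HIST2H2BE (0.36) were among these 4. The change differed between treatments in 1 of 11, HIST2H2BE (0.53). In U937 under OTX 7 of 11 were higher and 1 lower, against 10.7% and 9.89% of all genes.

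Lineage and stress lists held few calls. Of 30 p53 targets 2 were higher, the antiproliferative gene BTG2 (log2 0.77) and the stress cytokine GDF15 (0.40). Lower were 3, the mitochondrial reductase FDXR (-0.60), the kinase PLK2 (-0.38) and PHLDA3 (-0.51), an inhibitor of AKT (5 higher and 10 lower with the block). GDF15 lost its call without any 1 library except replicate 2 of +FA OTX, and PLK2 and PHLDA3 without replicate 1 of either group. Of 19 HOX programme genes 2 were higher, HOXB9 with 48.8, 49.7 and 50.5 FPKM without folic acid and 35.6, 36.0 and 35.3 FPKM with it and HOXB5 (log2 0.48). Monocyte markers gave 1 higher of 8 (CTSS, log2 0.47), granule and progenitor markers 1 higher (ANPEP) and 1 lower (CD34, log2 -0.47) of 5. Erythroid and megakaryocyte markers gave 1 higher of 7 (VWF, log2 0.98), lymphoid markers 1 higher and 1 lower of 5 (IL7R and IGLL1), and stromal and epithelial markers 0 of 4. CTSS averaged 1.13 FPKM without folic acid and 0.536 FPKM with it, and VWF 2.81 FPKM without folic acid and 0.924 FPKM with it. Both reached the 1 FPKM needed for testing only in their higher group. The summed level of the 12 myeloid line markers ran from 1102 to 1284 FPKM in the -FA libraries and from 1200 to 1372 FPKM in the +FA libraries. Most of it was NPM1, at 768 to 964 FPKM in the -FA libraries and 879.7 to 1060 FPKM in the +FA libraries. Of the others, the myeloid transcription factor SPI1 ran from 17.5 to 19.9 FPKM in the -FA libraries and from 10.2 to 12.5 FPKM in the +FA libraries. The leukocyte phosphatase PTPRC ran from 27.9 to 33.9 FPKM in the -FA libraries and from 22.1 to 25.4 FPKM in the +FA libraries. In both the -FA libraries lay above the +FA libraries, and SPI1 was called (log2 0.69, adjusted p = 0.00633) while PTPRC was not (log2 0.39, adjusted p = 0.0544). With the -FA range first, MEIS1 also lay above, at 31.5 to 34.8 against 27.2 to 29.1 FPKM, as did ANPEP. HOXB2 lay below, at 31.8 to 37.0 against 38.6 to 40.1 FPKM, as did CD34. CEBPA (53.9 to 64.3 against 63.2 to 71.0 FPKM), HOXA9 (76.4 to 85.3 against 83.8 to 87.0 FPKM), CD33, KIT and NPM1 overlapped. The summed epithelial markers, which are KRT8 and KRT18 in the main, ran from 65.4 to 74.3 FPKM in the -FA libraries and from 69.8 to 73.4 FPKM in the +FA libraries, with EPCAM at 0. KRT8 ran from 4.91 to 5.58 FPKM in the -FA libraries, below the 6.04 to 6.885 FPKM of the +FA libraries. KRT18 overlapped, at 60.1 to 68.8 FPKM in the -FA libraries and 63.8 to 66.5 FPKM in the +FA libraries. VIM, the filament protein vimentin, is not on the list with 0 of 4 called and was itself called higher (log2 1.08, adjusted p = 0.000506). VIM stood at 46.7 ± 3.34 FPKM without folic acid and 21.5 ± 0.582 FPKM with it. It made up nearly all of the summed stromal markers, 43.0 to 49.4 FPKM in the -FA libraries and 21.2 to 22.4 FPKM in the +FA libraries, while COL1A1, COL3A1 and DCN lay under 1 FPKM in all 6. HBB, a globin, ran from 0 to 10.4 FPKM in the -FA libraries and was listed at 0 in the +FA libraries. The part of any change in cell makeup in the results above was not tested. In immediate early genes 2 of 19 were higher (SPRY2 and FOSL1) and 3 lower (PHLDA1, DUSP5 and IER5). In glycolysis and hypoxia 1 was higher (VEGFA) and 1 lower (BNIP3, log2 -0.63) of 26. Among 27 DNA and histone methylation enzymes 0 were called (3 higher and 2 lower at an unadjusted p under 0.05, 3 and 4 with the block). Of all 10606 genes tested, 2127 passed that unadjusted p in either direction. CD34 lost its call without any 1 library except replicate 2 of -FA OTX, CTSS without replicate 1 of +FA OTX or 3 of -FA OTX, and SPRY2, DUSP5, IER5 and BNIP3 without replicate 1 or 3 of either group. With the block the counts were 9 higher and 6 lower histone genes, 4 and 6 HOX genes, 4 and 1 monocyte markers, 3 and 0 erythroid and megakaryocyte markers, 6 and 11 glycolysis and hypoxia genes, 1 and 6 heat shock genes and 1 and 3 polyamine genes, the higher given first in each case. All block counts here stand against 12.5% higher and 14% lower of all genes tested. The counts of calls without the block stand against 3.16% higher and 1.46% lower.

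The next comparison asked how far these changes also appear without OTX. Under DMSO, 1110 of 11023 genes differed between -FA and +FA cells (10.1%), 621 higher (5.63%) and 489 lower (4.44%). Of the 328 genes higher under OTX that were also tested under DMSO, 86 were higher there as well and 3 lower, which is 26.2% of them and 14.9% of the 579 genes higher under DMSO and tested in both. Of the 152 lower ones tested in both, 28 were lower and 4 higher, 18.4% of them and 7.16% of the 391 lower under DMSO. The DMSO count moved by more than 1.5 times without any 1 library, from 82 without replicate 2 of -FA DMSO to 3958 without replicate 1 of +FA DMSO. Each pair was rescaled over its own 6 libraries, and no control library is shared between the pairs.

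The change under OTX minus the change under DMSO was then tested in the 12 IMS-M2 libraries, where a difference between the tables that is the same for both treatments cancels. It was called in 792 of 11214 genes (7.06%), 385 higher (3.43%) and 407 lower (3.63%). The split moved to 220 higher and 420 lower with libraries scaled to equal FPKM sums, and to 518 and 275 with equal upper quartiles. The count was 88 without replicate 1 of -FA OTX and 3331 without replicate 1 of +FA DMSO, and 134 to 1300 without any other library. Of the 490 genes called under OTX, 171 were called here too, 111 higher in both and 59 lower in both, with 1 of opposite sign. The same OTX libraries enter both tests, so this agreement in sign is in part built in and is not independent.

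In many ATF4 genes the change differed between treatments. CHAC1 stood at 5.05 ± 0.381 FPKM without folic acid and 6.37 ± 0.677 FPKM with it under DMSO, and did not pass the test there (adjusted p = 0.0911), while the change differed between treatments by a log2 of 2.02 ± 0.14 (adjusted p = 3.82e-05). DDIT4 stood at 13.2 ± 0.160 FPKM without folic acid and 18.2 ± 0.520 FPKM with it under DMSO, lower without folic acid (log2 -0.44, adjusted p = 0.0185), against a higher level under OTX, with a difference of 1.82 (adjusted p = 0.00024). PCK2, which is not on the list, stood at 35.9 ± 1.79 FPKM without folic acid and 39.9 ± 0.362 FPKM with it under DMSO (difference 1.52, adjusted p = 0.00024). ASNS stood at 47.0 ± 1.06 FPKM without folic acid and 48.0 ± 8.66 FPKM with it under DMSO (difference 1.23, adjusted p = 0.00195). The folic acid difference in ASNS and PCK2 thus did not pass the test under DMSO (adjusted p = 0.952 and 0.228). Of the 34 list members, 3 were higher and 1 lower under DMSO, and 15 had a higher and 1, CEBPB, a lower change under OTX than under DMSO (10 to 19 and 0 to 1 without 1 library). In the folate list 3 had a higher change: CBS, MAT2A (0.66) and AMT (0.99), a subunit of the glycine cleavage system (1 to 10 without 1 library). The difference for CHAC1, DDIT4, PCK2, ASNS, PSAT1 (log2 0.99), WARS (0.89), SLC7A11 (0.92) and CBS (0.78) was called without any 1 of the 12 libraries, and that of PHGDH (0.58, adjusted p = 0.022) in 8 of the 12 cases.

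Cholesterol genes behaved otherwise. Under DMSO 13 of 23 were higher without folic acid and 0 lower, with a median of 0.38, and the change differed between treatments in 4, all larger under OTX (1 to 9 without 1 library). HMGCS1 had 25.3, 28.7 and 28.2 FPKM without folic acid and 11.7, 15.0 and 15.3 FPKM with it under DMSO (log2 0.93, adjusted p = 0.00596), and the difference between treatments, 0.28, did not pass the test (adjusted p = 0.234). INSIG1 stood at 73.7 ± 4.04 FPKM without folic acid and 51.3 ± 3.81 FPKM with it under DMSO, with a difference of 0.40 (adjusted p = 0.0593). LSS differed by 0.48 (adjusted p = 0.0428), and kept this call in 2 of 12 cases with 1 library left out. Among interferon genes 2 were higher under DMSO, and 3 of 19 had a larger change under OTX (1 to 7 without 1 library), among them RSAD2 (0.83, adjusted p = 0.00573) and IFITM1 (0.90, adjusted p = 0.0337). RSAD2 stood at 6.90 ± 0.478 FPKM without folic acid and 5.75 ± 0.336 FPKM with it under DMSO and held this call without any 1 library. H19 stood at 138 ± 1.09 FPKM without folic acid and 456 ± 55.9 FPKM with it under DMSO, far above its level under OTX in both conditions, and its change did not differ between treatments beyond the test (log2 -0.27, adjusted p = 0.259).

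**Figure D3:**
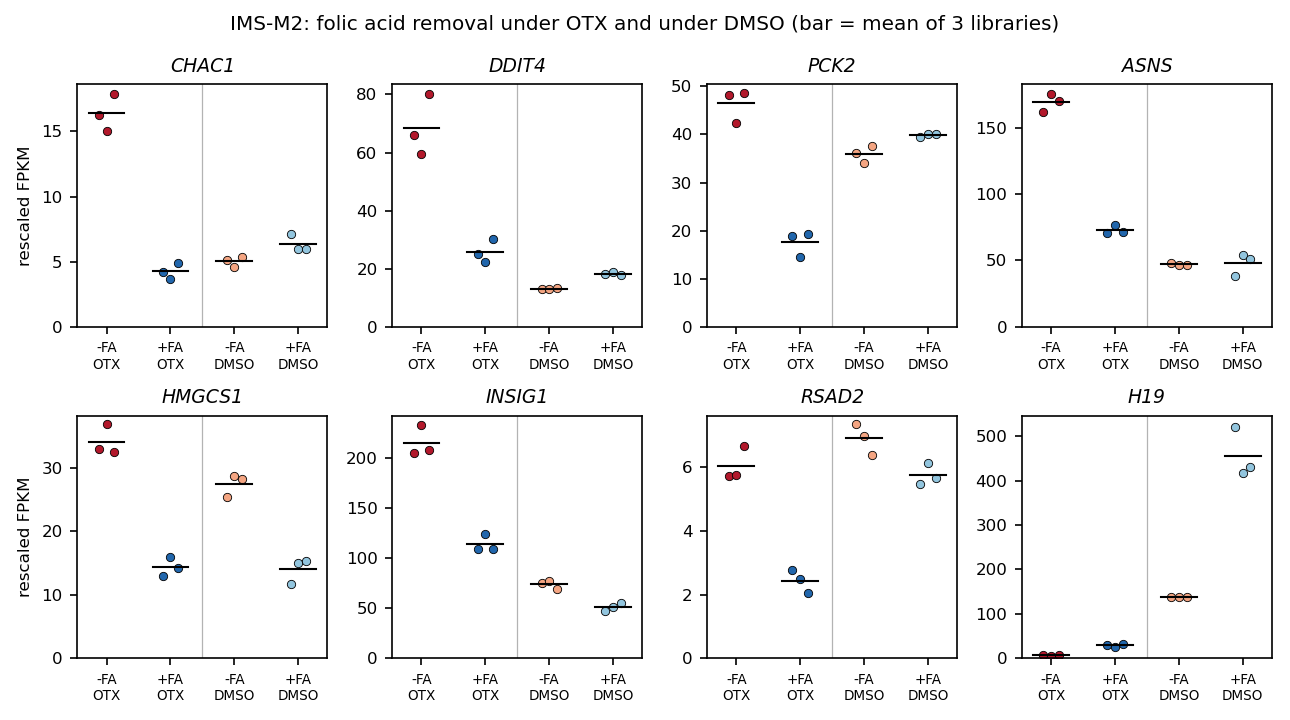
Rescaled FPKM (y axes, each from 0) of 8 genes in IMS-M2 libraries, from left to right -FA OTX, +FA OTX, -FA DMSO and +FA DMSO, with 3 points per group and a bar at the mean; the OTX and the DMSO libraries were rescaled apart. In CHAC1, PCK2 and ASNS all -FA points lie above all +FA points under OTX but not under DMSO, while HMGCS1 and INSIG1 lie higher and H19 lower without folic acid under both.

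Among the largest differences between treatments were also genes that were lower without folic acid under OTX and fitted higher under DMSO, where the +FA libraries scattered. DTYMK stood at 42.4 ± 4.50 FPKM without folic acid and 58.2 ± 2.52 FPKM with it under OTX and at 58.8 ± 7.56 FPKM without folic acid and 37.8 ± 16.1 FPKM with it under DMSO (difference -1.14, adjusted p = 0.044). IER5, an immediate early gene, stood at 41.8 ± 1.82 FPKM without folic acid and 53.4 ± 2.02 FPKM with it under OTX and at 34.4 ± 4.52 FPKM without folic acid and 20.3 ± 6.87 FPKM with it under DMSO (difference -1.11). PINX1 (-1.11), GADD45GIP1 (-1.09), LENG1 (-1.08) and LOC100652739 (-1.48) gave the same picture, and FAM45A the opposite (1.56). The difference for these 7 genes was called in 2 to 6 of the 12 cases with 1 library left out. In mitosis genes 8 of 32 had a lower change under OTX than under DMSO and 0 a higher one, with a median difference of -0.34. Under DMSO 3 were higher. That count of 8 was 0 without replicate 2 of +FA DMSO and 15 without replicate 1 of +FA DMSO. PTPN6 (0.98), CD53 (1.46) and ICAM1 (0.75) had a higher change under OTX and C10orf10 a lower one (-1.04), called without any 1 of the 12 libraries.

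The last comparison set IMS-M2 beside U937 under the same drug. In U937, 2229 of 10830 genes differed between -FA OTX and +FA OTX (20.6%), 1158 higher (10.7%) and 1071 lower (9.89%). Leaving out any 1 library moved this count by over 1.5 times, to between 341 and 3628. Of the 279 genes higher in IMS-M2 and tested in U937, 62 were higher (22.2% of them and 6.72% of the 923 higher in U937 and tested in both) and 32 lower there. Of 105 lower ones 7 were lower (6.67% of them and 0.692% of the 1011 lower in U937) and 13 higher. The change in IMS-M2 minus the change in U937 was called in 1985 of 11642 genes (17.1%), 979 higher (8.41%) and 1006 lower (8.64%). It was 832 without replicate 1 of -FA OTX of IMS-M2 and 3223 without replicate 1 of +FA OTX of U937, and it was also under the full count by over 1.5 times without replicate 3 of -FA OTX or replicate 1 or 2 of +FA OTX of IMS-M2 (1129, 1099 and 1314), without replicate 2 or 3 of +FA OTX of U937 (1205 and 1207) and without 1 of the -FA OTX libraries of U937 (916). With equal FPKM sums the differences shifted by -0.11 and the split was 529 higher and 1930 lower. The 4 groups of this test come from 4 tables, and what differs between tables cannot be told apart from what differs between the lines.

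Several amino acid stress genes went opposite ways in the lines. In U937, DDIT4 stood at 13.8 ± 0.741 FPKM without folic acid and 25.6 ± 3.53 FPKM with it (log2 -0.84, adjusted p = 0.00415). PSAT1 stood at 23.7 ± 2.94 FPKM without folic acid and 41.6 ± 4.77 FPKM with it (-0.79, adjusted p = 0.00633). PHGDH stood at 76.7 ± 7.17 FPKM without folic acid and 129 ± 17.2 FPKM with it (-0.74, adjusted p = 0.00692). All 3 were lower without folic acid, and so was PCK2, at 27.2 ± 3.34 FPKM without folic acid and 37.1 ± 3.79 FPKM with it (-0.44, adjusted p = 0.0316). The differences between the lines were 2.21 for DDIT4, 1.99 for PSAT1, 1.76 for PHGDH and 1.79 for PCK2 on the log2 scale, with adjusted p-values of 4.25e-05, 1.88e-05, 2.97e-05 and 8.66e-05. ASNS was low in U937, at 2.85 ± 0.157 FPKM without folic acid and 3.54 ± 0.416 FPKM with it, and CHAC1 near 1 FPKM, at 1.07 ± 0.0991 FPKM without folic acid and 1.01 ± 0.198 FPKM with it. Of 31 list members tested in U937 2 were higher and 10 lower. Among the folate genes, SHMT2 and MTHFD2 were lower in U937 (log2 -0.49 and -0.34), with 0 of 30 higher and 9 lower.

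Among sterol genes INSIG1 and FDFT1 were called higher in IMS-M2 and lower in U937, while interferon genes were called higher more often than lower in both. INSIG1 stood at 296 ± 7.25 FPKM without folic acid and 558 ± 67.2 FPKM with it in U937 (log2 -0.90, adjusted p = 0.00219; difference between the lines 1.80, adjusted p = 1.58e-05). FDFT1 was lower there too (log2 -0.39), and of 22 members 3 were higher and 6 lower, while HMGCS1 (log2 -0.13, adjusted p = 0.433) and LSS (-0.15, adjusted p = 0.254) did not pass the test there. Interferon genes were higher in 15 of 22 tested in U937 and lower in 1, IFITM1. The change of IFIT3, which stood at 7.68 ± 0.685 FPKM without folic acid and 4.09 ± 0.164 FPKM with it in U937 (log2 0.77, adjusted p = 0.00229), was larger there (difference -0.35, adjusted p = 0.0282). TXNIP, at 88.2 ± 6.01 FPKM without folic acid and 121 ± 5.08 FPKM with it in U937 (log2 -0.45, adjusted p = 0.012), was lower in both lines, and the difference between them did not pass the test (-0.10, adjusted p = 0.451). HEXIM1 stood at 40.1 ± 5.52 FPKM without folic acid and 25.2 ± 4.93 FPKM with it in U937, where it was called higher (log2 0.66, adjusted p = 0.0199), and its change differed from that in IMS-M2 by -0.57 (adjusted p = 0.0463).

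**Figure D4:**
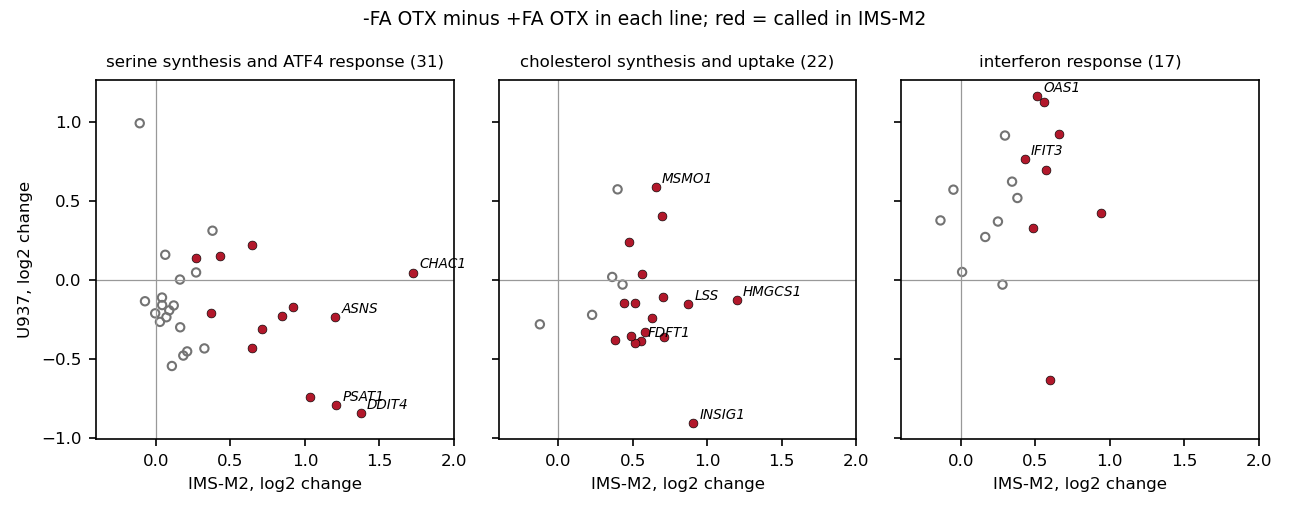
Log2 change of FPKM + 1, -FA OTX minus +FA OTX, in IMS-M2 (x axis) and U937 (y axis), for the members of 3 lists tested in both lines (points; red were called in IMS-M2). DDIT4 lies at 1.37 in IMS-M2 and -0.84 in U937, CHAC1 at 1.73 and 0.05, INSIG1 at 0.91 and -0.90, and IFIT3 above 0 in both, at 0.43 and 0.77.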

How the data were processed

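Polyadenylated RNA was extracted with a Qiagen kit and made into stranded Illumina libraries, per the labels' protocols. Tools named in the submitters' processing notes are Cuffdiff 2.2.1, TopHat2 2.1.1 and bcl2fastq 2.17.1.14, without role or order, and the build is hg19. The authors deposited FPKM per gene in 4 tables, 1 for each line and folic acid condition, each with 23595 genes; whether the tables were normalized together is not stated, and read counts were not analysed here. Columns were matched to samples by name, except the -FA columns of U937, numbered otherwise than the labels and used by group only.

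Values were rescaled by the median of ratios over the libraries of each comparison. A gene was tested if 1 group averaged 1 FPKM or more. CTSS, VWF, IFIT2, NQO1, SLC7A11, IGLL1, HIST1H1B, SNORA48 and SNORD10 met this only through the group where they were higher. Tests ran on log2(FPKM + 1) with limma 3.58.1 (R 4.3.3; intensity trend, Benjamini-Hochberg), called at an adjusted p below 0.05. Fold changes on this scale understate those of low genes. The procedure was tested on simulated data. Named genes were the 12 highest and 12 lowest called changes with a mean of at least 5 FPKM and groups apart, with small RNA symbols left out. Others were 6 each way of those also called between treatments, again without small RNA symbols, up to 4 members per list and direction, and every folate gene. List members beside them are named as the rest of a count. Some genes in the lists are counted but not reported by name here. The members and lists were chosen with earlier results of these data known. Same-numbered OTX libraries deviated together (r across genes all over 0.1), though replicates 1 and 3 correlated as much with each other, so the replicate block is given where it changes a count or call. Promoters and their build are from RefSeq (GRCh38.p14). Alternatives were other pseudocounts, filters, scalings, spread models, the block and leaving out each library.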

Additional observations from a re-analysis of the deposited data

Results flagged for a closer look

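The named genes below are listed because the change without folic acid under OTX differed between IMS-M2 and U937 in the test of that difference (limma, adjusted p below 0.05 over 11642 genes, 17.1% of which were called). Values are differences in log2 change, IMS-M2 minus U937. Most of these genes had been named for their change in IMS-M2 under OTX, and the same IMS-M2 libraries enter this test. The sign of a difference therefore follows in part from that choice.

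The serine, amino acid and folate genes listed here had all been called higher in IMS-M2 itself. The change was higher in IMS-M2 for DDIT4 2.21, PSAT1 1.99, PCK2 1.79, PHGDH 1.76, CHAC1 1.68, ASNS 1.43, CBS 1.27, WARS 1.06, SHMT2 0.87, MTHFD2 0.73 and SLC7A11 0.72. Among cholesterol genes it was higher for INSIG1 1.80, HMGCS1 1.31, LSS 1.01 and FDFT1 0.93. The other positive differences were RSAD2 1.24, LBH 1.72, PTPN6 1.27, HIST1H2BC 1.27, SLC40A1 1.22, ANPEP 1.16, VWF 0.98, CD53 0.97, LPXN 0.55, HIST1H3D 0.54, IL7R 0.53, VEGFA 0.51, HOXB5 0.48, HOXB9 0.47, SAT1 0.39 and ALAS1 0.29.

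The change was lower in IMS-M2 for LOC100652739 -1.70, H19 -1.69, SOCS1 -1.56, PHLDA1 -1.42, TARP -1.31, LENG1 -1.10, C10orf10 -1.09, SOCS3 -0.99, GADD45GIP1 -0.99, HIST1H1B -0.98, PINX1 -0.96, TENC1 -0.83, WDR86 -0.76, CD200 -0.73 and PRKG1 -0.72. Smaller negative differences were PHLDA3 -0.64, FDXR -0.58, IGLL1 -0.58, HSPB1 -0.50, CD34 -0.46, DUSP5 -0.40, PLK2 -0.40, BCL2 -0.39 and IFIT3 -0.35. Of these genes, 20 averaged under 1 FPKM in both U937 groups and were not tested in that line alone, so that their differences rest in the main on IMS-M2: LBH, H19, C10orf10, SOCS3, TENC1, CD200, WDR86, PRKG1, PLK2, PHLDA3, IL7R, IGLL1, HIST1H3D, HIST1H1B, CD34, HOXB9, HOXB5, VWF, RSAD2 and SLC7A11. H19, for one, stood at 0.255 ± 0.0590 FPKM without folic acid and 0.541 ± 0.0707 FPKM with it in U937 (mean ± SD, n = 3 per group). The 4 groups come from 4 tables, and a difference between the tables cannot be told apart from one between the lines.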

How the results depend on the processing

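The libraries were few and the FPKM tables carry no counts, so precision rests on 3 libraries per group and the depth behind a value is unknown. Leaving out 1 library gave 146 to 571 calls under OTX in IMS-M2, 123 to 359 higher and 23 to 212 lower. The count was 82 to 3958 under DMSO, 88 to 3331 for the difference between treatments, 341 to 3628 in U937 and 832 to 3223 for the difference between the lines. It gave 7 to 18 higher cholesterol genes, 4 to 9 higher interferon genes and 0 to 5 lower mitosis genes. The replicate block gave 2811 calls, 1325 higher and 1486 lower, with 1 lower cholesterol gene, 15 higher interferon genes and 27 lower mitosis genes. Same-numbered DMSO libraries did not all deviate together (r = 0.105, -0.004 and 0.208), so their block is only a setting: it gave 1809 calls under DMSO and 2429 for the difference between treatments. No paired analysis was possible in U937 because its -FA columns carry other numbers than the labels. A filter at a mean of 5 FPKM gave 221 higher genes, and a pseudocount of 0.1 FPKM gave 63 genes with a log2 change of at least 1. No filter on low values gave 444 calls for the difference between treatments, and equal FPKM sums gave 1 lower mitosis gene. The cause of these moves was not tested. Of 79 named genes called under OTX, 46 kept the call in each of up to 18 alternatives, 14 lost it in 1 to 3, 19 lost it in 4 or more, and none changed sign.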

Other observations

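Genes of antigen presentation, chosen after their values were seen, lay higher without folic acid under OTX. TAP1, which carries peptides into the endoplasmic reticulum, stood at 40.0 ± 3.95 FPKM without folic acid and 18.7 ± 1.497 FPKM with it (mean ± SD, n = 3 per group; limma log2 1.06, adjusted p = 0.00144). B2M, the light chain of class I molecules, stood at 2363 ± 2.63 FPKM without folic acid and 1734 ± 127 FPKM with it (log2 0.45, adjusted p = 0.008). The class II chaperone CD74 stood at 59.2 ± 8.36 FPKM without folic acid and 31.1 ± 3.88 FPKM with it (log2 0.91, adjusted p = 0.00758). TAP2 (log2 0.49), the immunoproteasome subunits PSMB8 (0.52), PSMB9 (0.63) and PSMB10 (0.45), HLA-B (0.82) and HLA-DRA (0.44) were also called. HLA-C (0.27), HLA-E (0.30), TAPBP (0.15) and NLRC5 (0.39) were not. Under DMSO, PSMB9 (log2 0.47), PSMB10 (0.50) and HLA-B (0.45) were also called higher without folic acid. Their change did not differ between treatments beyond the test. A larger change under OTX than under DMSO was called in TAP1 (0.99), TAP2 (0.76), CD74 (0.72), HLA-DRA (0.76) and NLRC5 (0.67). The class I genes resemble each other, so their values are uncertain, and TAP1 and PSMB8 share their positions with another gene.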
